A study of Mus musculus with 9 samples.

Results

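The odorant receptor genes of one class II cluster on mouse chromosome 10 were examined in RNA from the main olfactory epithelium. Members were all genes of the deposited table with a symbol from Olfr763 to Olfr824 by number, with or without a -ps suffix for a pseudogene, and no expression value entered this choice. Of the 55291 genes in the table, 61 fit the rule. Of these, 54 were detected, which means 10 or more counts summed over all mice. Of the 62 numbers in the range, Olfr817 was not analysed here. The mice were 8 to 12 weeks old, on the C57BL/6 background, with 3 mice in each group: littermate wild-type mice, mice homozygous for a CRISPR/Cas9 deletion of the Ms4a gene cluster (Ms4a cluster knockout), and Ms4a6c-/- mice, which lack a single gene of that cluster through homologous recombination (Ms4a6c knockout). Each genotype was compared with wild type, and the knockouts with each other, to ask whether expression of these receptors differed when Ms4a genes were absent. Both deletions are germline, so every cell of the animal carried them.

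Odorant receptors are G protein-coupled receptors in the cilia of olfactory sensory neurons. Each mature neuron of the main epithelium is known to transcribe a single receptor gene from a single allele, so that the amount of a receptor's mRNA in the tissue follows both the number of neurons that chose it and the transcript content of each. Bulk RNA cannot tell fewer cells from less RNA per cell. Class II receptors are the tetrapod-type receptors that make up most of the mouse repertoire, and they lie in clusters of related genes that arose by duplication. MS4A proteins are membrane proteins of another kind. Many are found in necklace neurons, a small sensory population that does not follow the single-receptor rule. The study reports MS4A1 outside the necklace, in a sparse set of sensory neurons of the main epithelium. MS4A proteins also occur in immune and other cells.

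The 61 members lay on chromosome 10 between positions 129010791 and 130130000 (GRCm38), a stretch of 1119.2 kb, with 30 on the plus strand and 31 on the minus strand in 16 alternating runs. The annotation called 55 of them protein-coding, 5 unprocessed pseudogenes and 1, Olfr779, a polymorphic pseudogene. RefSeq's alternative names put 56 members in 13 families of the MOR naming scheme, which groups receptors by protein similarity. MOR114 had 14 members, and MOR110 and MOR111 had 10 each. Coding sequences of members in the same family were 67.7% to 99.2% identical, with a median of 75.6% over 188 pairs, against a median of 69.0% and a highest value of 76.1% over 1243 pairs from different families.

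Many of the coding sequences carried a variant of a hallmark of the receptor superfamily. At the end of the third membrane segment, mouse odorant receptors have a conserved box named MAYDRY, which takes part in coupling to the G protein. In 50 of the 55 members with an open frame, or 90.9%, the second codon of this box was a serine codon, and in the other 5 it was an alanine codon. Of 1023 other odorant receptor genes with a box, 12.6% had serine and 85.4% had alanine there. The exact MAYDRY box was read in 2 of the 55 members, Olfr763 and Olfr796, and in 506 of 1075 other open-frame odorant receptor genes (47.1%). The 18 bases of the box are given below, 5′ to 3′ on the coding strand with the second codon in capitals, for the 3 most abundant members and for the 5 that carried alanine; the codons came from GENCODE transcripts.
Olfr789: atgTCTtatgatcgctat
Olfr788: atgTCCtatgaccgctat
Olfr820: atgTCCtatgaccgctat
Olfr763: atgGCCtatgaccggtat
Olfr796: atgGCCtatgaccgttat
Olfr819: atgGCTtatgatcgcttt
Olfr823: atgGCTtatgaccgcttc
Olfr824: atgGCTtatgaccgcttc
The form shared by Olfr788 and Olfr820 was the most common one and stood in 16 members. All 5 alanine members belonged to families MOR210, MOR265 and MOR269, which held no other member of the cluster.

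Near-identical members were frequent, which bears on many counts below. A read that matches more than 1 gene is divided between them by estimation. The members held 11 sets whose coding sequences were at least 95% identical, with 23 genes in all. The 3 pairs on which values below turn are shown by a 100-base stretch of coding sequence, 5′ to 3′, with the bases that differ between the pair in capitals. In Olfr823 and Olfr824 the stretch is bases 250 to 349 of the coding sequence, and the whole coding sequences differed at 12 bases. In Olfr775 and Olfr776 it is bases 413 to 512, with 37 differences over the whole. In Olfr772 and Olfr773 it is bases 718 to 817, with 7 differences over the whole.
Olfr823: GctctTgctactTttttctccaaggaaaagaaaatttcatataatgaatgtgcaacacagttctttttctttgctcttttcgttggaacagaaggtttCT
Olfr824: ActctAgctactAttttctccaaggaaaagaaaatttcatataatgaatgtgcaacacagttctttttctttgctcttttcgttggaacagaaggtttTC
Olfr775: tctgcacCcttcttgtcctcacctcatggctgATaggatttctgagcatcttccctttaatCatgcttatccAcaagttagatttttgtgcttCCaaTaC
Olfr776: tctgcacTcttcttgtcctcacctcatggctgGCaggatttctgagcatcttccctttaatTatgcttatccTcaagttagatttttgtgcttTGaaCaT
Olfr772: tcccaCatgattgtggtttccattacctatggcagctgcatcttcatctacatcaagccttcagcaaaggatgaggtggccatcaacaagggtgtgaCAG
Olfr773: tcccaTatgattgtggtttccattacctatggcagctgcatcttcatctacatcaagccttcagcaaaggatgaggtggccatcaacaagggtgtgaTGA
Of the 54 detected members, 28 had a deposited count that was not a whole number in at least 1 mouse, and 26 had whole counts in every mouse.

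Libraries held between 13954591 and 21987174 counts, and the members together between 2337.1 and 6881.2 counts in a mouse. Levels are given as CPM, the count of a gene relative to its library size after TMM scaling. A count of 3, taken as the limit of detection, was worth 0.123 to 0.299 CPM depending on the mouse, and covers counting error only. The targeted genes followed the labels. Ms4a6c counts were 54.0, 90.3 and 81.5 in wild type, 0 in each Ms4a cluster knockout mouse, and 0, 2.35 and 2 counts in the Ms4a6c knockout mice. Ms4a1, another gene of the cluster, had 8 to 26 counts in wild-type and Ms4a6c knockout mice and 0 in Ms4a cluster knockout mice. Wild-type mouse 1 and Ms4a cluster knockout mouse 2 stood apart from the rest: 6 nasal gland transcripts took 15.0% and 15.4% of their counts, against 1.15% to 4.50% elsewhere, and results that rest on these libraries are given with and without them. Omp, the marker of mature olfactory sensory neurons, was at 4856 ± 329, 4670 ± 606 and 5018 ± 194 CPM in wild-type, Ms4a cluster and Ms4a6c knockout mice, respectively (SD, n = 3 each).

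The cluster was broadly transcribed, with counts spread unevenly over its members. All 54 detected members had counts above 0 in each of the 9 mice, and 51 were above 3 counts in each. Not corrected for gene length, mean levels over the mice ran from 0.426 CPM for Olfr782 to 19.1 CPM for Olfr789, with a median of 3.14 CPM. For comparison, the median of the 1054 other detected odorant receptor genes was 3.32 CPM. The 3 members with the most CPM, Olfr789, Olfr788 and Olfr820, held 22.6% of all member counts, and the 10 with the most held 49.5%. These 3 had the most CPM in every one of the 9 mice. Longer gene models tended to have more CPM (Spearman's rho 0.449 over the 54 members, a description).

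Because gene models differed in length, levels of members are set against each other below per kilobase of exon. On that scale the median over detected members was 0.981 CPM per kb, against 1.06 for other detected odorant receptor genes, 0.625 for those of chromosome 9 and 0.958 for the class I receptors of chromosome 7, and 25 of the 54 members lay above the median of the other receptors. Highest was Olfr789 at 4.31 CPM per kb over all mice, followed by Olfr788 at 3.95 and Olfr820 at 3.92. In wild-type mice these were at 4.63 ± 0.852, 3.97 ± 0.647 and 4.05 ± 0.581 CPM per kb (SD, n = 3), so that the order among them did not stand out from the spread between mice. Next came Olfr791 at 3.62 ± 0.312, Olfr805 at 3.38 ± 0.4998 and Olfr794 at 3.36 ± 0.274 CPM per kb in wild-type mice, again closer to each other than their spread. By the mean over all mice, Olfr796 at 2.83 and Olfr821 at 2.72 CPM per kb completed the highest 8. In wild-type mice these were at 2.62 ± 0.209 and 2.51 ± 0.114 CPM per kb, and Olfr801 at 2.71 ± 0.273 and Olfr776 at 2.57 ± 0.4005 lay among them, so that these places did not stand out from the spread between mice. Between Olfr789 and Olfr782, the lowest detected member at 0.219 CPM per kb over all mice, lay a 19.7-fold range.

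**Figure D1:**
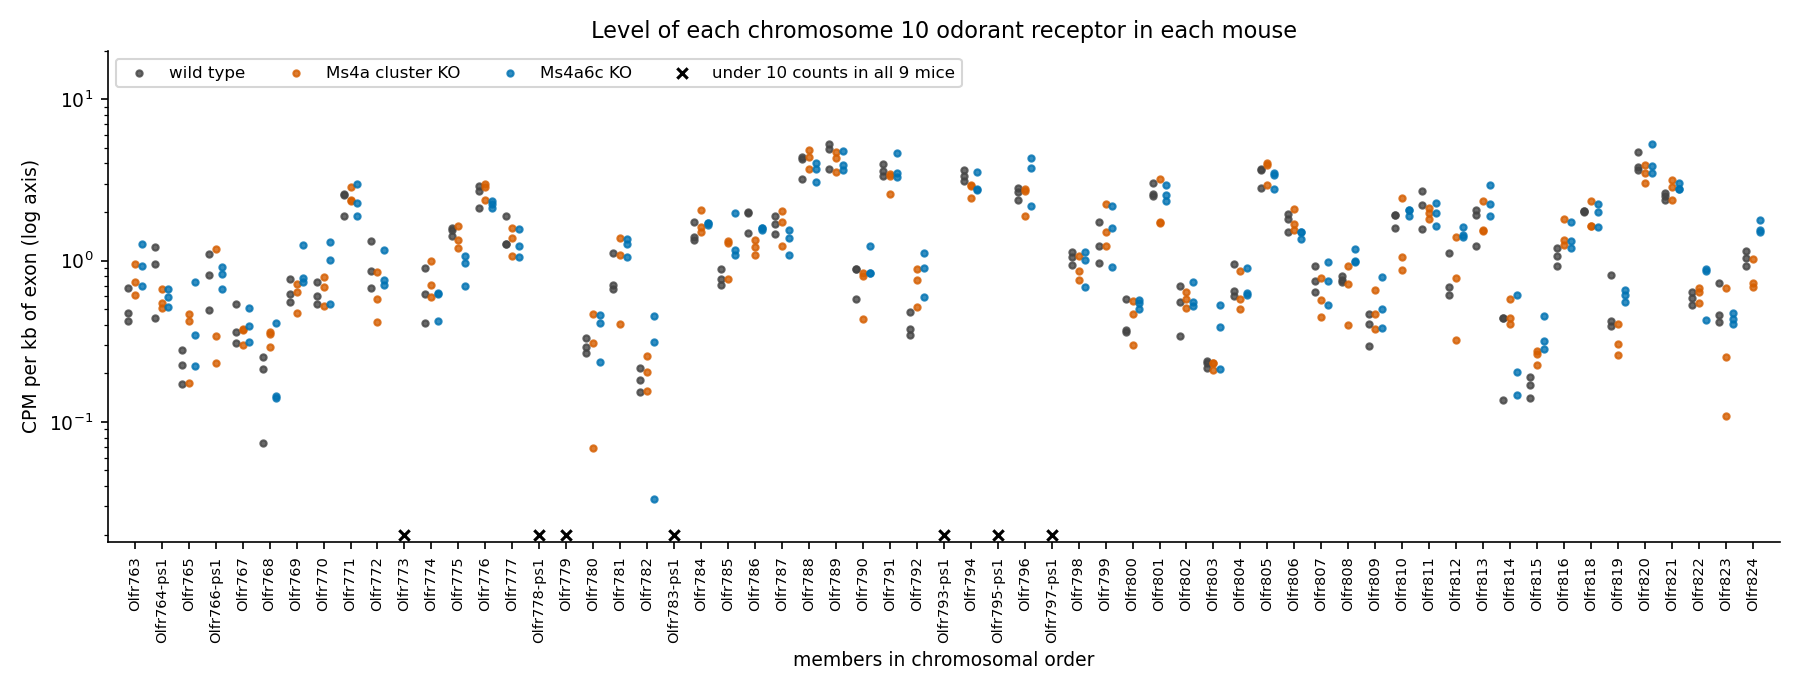
Level of each member in each mouse, in CPM per kb of exon on a log axis, with members in chromosomal order and colors for genotype; crosses mark the 7 members under 10 counts. Olfr788, Olfr789 and Olfr820 stand highest, and for most members the points of the genotypes are intermingled.

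In the mouse-by-mouse values, Olfr789 (chromosome 10, 129484752 to 129490542, plus strand, MOR111) was at 16.3, 21.8 and 23.5 CPM in wild-type mice, 20.9, 19.2 and 15.6 CPM in Ms4a cluster knockout mice and 21.2, 16.1 and 17.3 CPM in Ms4a6c knockout mice. Its neighbor Olfr788 (129470998 to 129476618, plus strand, MOR111) was at 15.3, 20.4 and 20.8 CPM, then 20.7, 23.0 and 17.5 CPM, then 19.1, 14.6 and 17.5 CPM in the same order. Olfr820 (130012621 to 130021286, plus strand), the cluster's only MOR116 receptor, was at 22.2, 17.9 and 17.1 CPM, then 18.5, 14.2 and 16.5 CPM, then 24.9, 18.2 and 16.3 CPM. For all 3 receptors the ranges of the genotypes overlapped. The order of the 54 members was much alike between mice: Spearman's rho over members was 0.862 to 0.972 in the 36 pairs of mice, a description in which all members share the library, the gene lengths and the annotation. For the 13 members with a mean of at least 100 counts, the coefficient of variation between wild-type mice had a median of 12.8%, and for 327 other odorant receptor genes at that depth 13.7%.

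The longest run of genes on a single strand, 17 of the 61 members from Olfr779 to Olfr795-ps1 (129311180 to 129579442, plus strand), contains Olfr788 and Olfr789 and 13 of the 54 detected members. It gave 32.7% of all member counts, a value not corrected for gene length. By family, the most counts came from MOR111, at a summed 73.2 ± 8.33 CPM in wild-type mice (SD, n = 3), followed by MOR110 with 19.2% and MOR114 with 18.2% of member counts. Levels within a family covered a wide range: over all mice, detected MOR111 members ran from 0.277 CPM per kb for Olfr803 to 4.31 CPM per kb for Olfr789, and detected MOR110 members from 0.219 for Olfr782 to 3.41 CPM per kb for Olfr805. Of the near-identical neighbors Olfr824 and Olfr823, the former was at 1.15 and the latter at 0.438 CPM per kb. At the lower end of the cluster, Olfr763 was at 1.90 CPM.

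**Figure D2:**
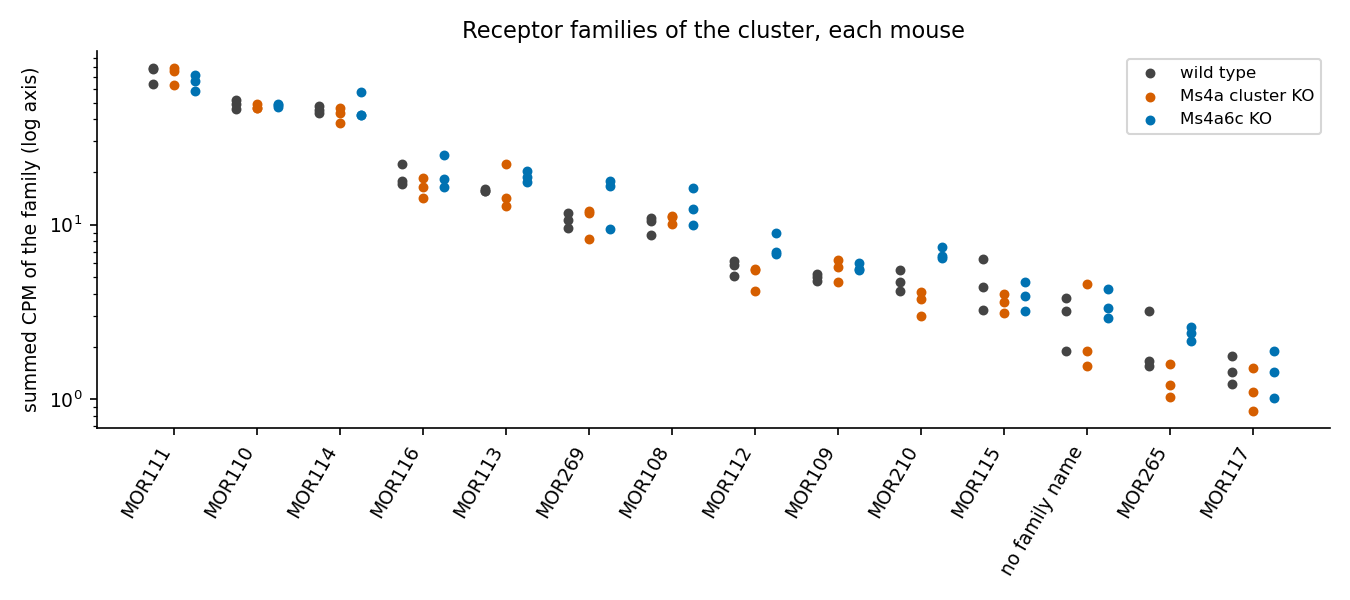
Summed CPM of each receptor family of the cluster in each mouse, on a log axis, with families ordered by their mean and colors for genotype. MOR111, MOR110 and MOR114 give the most, and the Ms4a6c knockout mice lie above all other mice in MOR112 and MOR210.

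In MOR112, which holds Olfr790, Olfr808 and the undetected Olfr795-ps1, the summed level was 5.71 ± 0.580 CPM in wild-type mice, 5.07 ± 0.767 CPM in Ms4a cluster knockout mice and 7.55 ± 1.16 CPM in Ms4a6c knockout mice (SD, n = 3). In MOR210, which holds Olfr823 and Olfr824, it was 4.76 ± 0.666, 3.62 ± 0.554 and 6.85 ± 0.539 CPM. In the families with the most counts the genotypes overlapped: in the same order, MOR111 was at 73.2 ± 8.33, 72.4 ± 8.58 and 65.4 ± 7.09 CPM, MOR110 at 48.8 ± 2.95, 47.3 ± 1.41 and 48.1 ± 0.928 CPM, and MOR114 at 45.7 ± 2.20, 42.7 ± 4.29 and 47.5 ± 8.83 CPM. MOR112 and MOR210 were named here, out of 13 families, because their Ms4a6c knockout mice lay above all other mice. In MOR109 and MOR113 the Ms4a6c knockout mice lay above the wild-type mice, but not above all Ms4a cluster knockout mice. Over all tested genes, Ms4a6c knockout and wild-type mice did not overlap in 18.3%, in either direction. The share of genes set apart from all other mice is not given here, so these families are not a result about the members. Family sums were described without a test.

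The 7 undetected members were Olfr773, Olfr779 and 5 genes with a -ps symbol. Olfr773, Olfr778-ps1, Olfr779, Olfr783-ps1 and Olfr795-ps1 had 0 counts in all 9 mice, Olfr793-ps1 had 3 counts and Olfr797-ps1 had 5 counts in total. The limit of 10 counts was not near any member: just under it was Olfr797-ps1 with its 5 counts, and just over it Olfr782 with 69.9 counts. The other 2 -ps genes, Olfr764-ps1 and Olfr766-ps1, which the annotation used here types as protein-coding and RefSeq as pseudogenes, were at 1.93 and 2.13 CPM, and their coding sequences were 99.3% identical. All 7 undetected members had gene models of a single merged exon, 207 to 936 bases long. All 53 members with 2 or more exons were detected, and of the 8 with a single exon Olfr763 alone was. Among other odorant receptor genes, 94.7% of 1051 genes with 2 or more exons and 20.0% of 295 single-exon genes were detected. The detected members had models of 1304 to 5737 bases, and the part of model length in detection was not tested. For Olfr773, 99.2% identical to Olfr772 in the coding sequence, the 0 counts stand beside 373.4 counts for Olfr772, whose model also holds exon sequence outside the coding frame.

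Summed over all members, expression did not separate the genotypes. The sum was 240.1, 256.9 and 252.8 CPM in wild-type mice 1 to 3, 239.9, 233 and 245 CPM in Ms4a cluster knockout mice, and 282, 241 and 252 CPM in Ms4a6c knockout mice. Ms4a6c knockout mouse 1 was the highest of all, and the 3 ranges overlapped. Means were 249.9 ± 8.75, 239.4 ± 6.24 and 258 ± 21.3 CPM (SD, n = 3). By two-sided exact permutation tests, Ms4a cluster knockout mice differed from wild type by -10.5 CPM (p = 0.2), Ms4a6c knockout mice from wild type by 8.36 CPM (p = 0.8), and the knockouts from each other by -18.9 CPM (p = 0.2); with 3 mice against 3 this test cannot give less than 0.1. Without Ms4a6c knockout mouse 1, the difference of Ms4a6c knockout from wild type was -3.53 CPM. Without the libraries rich in gland transcripts, the 3 differences were -12.2, 3.46 and -15.6 CPM, in the order of the tests above.

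As a share of all odorant receptor counts, the members took 3.63%, 3.61% and 3.83% in the wild type, 3.58%, 4.05% and 3.87% in Ms4a cluster knockout mice and 4.28%, 3.47% and 3.72% in Ms4a6c knockout mice. Ms4a6c knockout mice 1 and 2 held the highest and the lowest share of the 9 mice. The means were 3.69% ± 0.119, 3.83% ± 0.235 and 3.82% ± 0.414 (SD, n = 3), and the exact permutation p was 0.4 for Ms4a cluster knockout against wild type, 0.8 for Ms4a6c knockout against wild type and 1.0 between the knockouts. Without wild-type mouse 1 and Ms4a cluster knockout mouse 2, the 2 libraries rich in gland transcripts, the first of these differences was 0.00733 percentage points in place of 0.145.

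**Figure D3:**
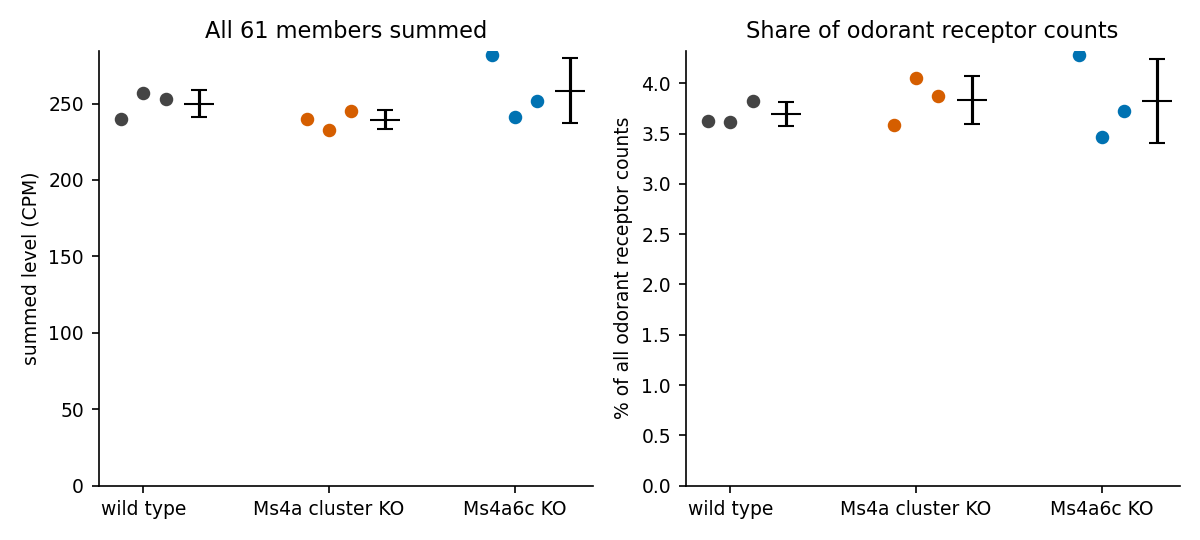
Summed CPM of the 61 members (left) and their percentage of all odorant receptor counts (right) in each mouse, with the mean and SD of the 3 mice of a genotype as bars. All 3 genotypes overlap on both scales, with means between 239.4 and 258 CPM and between 3.69% and 3.83%.

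Gene by gene, no member passed the test in any comparison. When Ms4a cluster knockout mice were compared with wild type, 0 of 54 members had an adjusted p under 0.05 (edgeR quasi-likelihood test, Benjamini-Hochberg over 23225 genes), where 0.0258% of all tested genes did. At an unadjusted p under 0.05 there were 4 members (2 higher, 2 lower), or 7.41%, against 4.93% of all genes and 9.20% of other odorant receptor genes, and DESeq2 also called 0 members. The median log2 fold change of the members was -0.0046, with 27 above and 27 below 0, against -0.08 for other odorant receptor genes and 0.0072 for all genes. In 6 members the mice of the 2 groups did not overlap (4 higher, 2 lower), which is 11.1% of members beside 9.87% of all genes. Olfr768, Olfr792, Olfr815 and Olfr816 were the higher ones, and Olfr786 and Olfr794 the lower ones.

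Among the 3 members with the smallest p in that comparison, Olfr786 and Olfr819 were lower and Olfr792 higher in the knockout. Olfr786 (129427306 to 129439080, plus strand, MOR111) was at 4.19, 5.55 and 5.63 CPM in wild type and 3.06, 3.79 and 3.41 CPM in Ms4a cluster knockout mice, with 4.47, 4.53 and 4.40 CPM in Ms4a6c knockout mice. Each Ms4a cluster knockout mouse was below every other mouse. The log2 fold change was -0.60 (SE 0.17), with an adjusted p of 0.968 by edgeR. Olfr792 (129539162 to 129542534, plus strand, MOR108) was at 1.02, 0.728 and 0.796 CPM in wild-type mice, 1.87, 1.10 and 1.60 CPM in Ms4a cluster knockout mice and 2.36, 1.26 and 1.91 CPM in Ms4a6c knockout mice. All 6 knockout mice were above the 3 wild-type mice. Its log2 fold change was 0.89 (SE 0.33; edgeR adjusted p = 0.968). The near-identical Olfr798, 95.1% alike in coding sequence, was at 3.73 ± 0.326, 3.22 ± 0.576 and 3.38 ± 0.815 CPM in the 3 genotypes, and the 2 genes summed gave a log2 fold change of 0.06 (SE 0.22).

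In the Ms4a6c knockout against wild type, 0 of 54 members passed (edgeR, adjusted p under 0.05), where 0.435% of all tested genes did, and DESeq2 called 0. At an unadjusted p under 0.05 there were 6 members (5 higher, 1 lower), or 11.1%, beside 10.5% of all genes and 12.3% of other odorant receptor genes. The median log2 fold change of the members was 0.15, with 32 above 0, against 0.08 for other odorant receptor genes, 0.18 for chromosome 9 receptors and 0.29 for class I receptors. Without Ms4a6c knockout mouse 1, the median was 0.03 for the members and 0.06 for other odorant receptor genes. Groups did not overlap in 10 members (9 higher, 1 lower), or 18.5%, beside 18.3% of all genes. The lower member was Olfr775, and the higher ones were Olfr763, Olfr785, Olfr792, Olfr808, Olfr812, Olfr815, Olfr816, Olfr821 and Olfr824. Markers of other cells were also summed. The 6 of sustentacular cells, the support cells of the epithelium, gave 24550 to 26390 CPM in Ms4a6c knockout mice. They gave 19420 to 20680 CPM in wild type and 19460 to 21980 CPM in the Ms4a cluster knockout. Cyp2a5 made up the largest part, at 9171 CPM in wild type and 12200 CPM in Ms4a6c knockout mice. Ermn went the other way, from 150.8 to 113.8 CPM, while the other listed ones were higher. None of the 6 passed the test alone. Among blood transcripts, Hba-a1 and Hbb-bs, the hemoglobin genes of red blood cells, summed to 480.9 to 1352 CPM in Ms4a6c knockout mice and 394 to 545.7 CPM in wild type, with log2 fold changes of 1.29 (SE 0.41; edgeR adjusted p = 0.281) and 1.07 (SE 0.42; edgeR adjusted p = 0.398), and in Ms4a cluster knockout mice they summed to 477.5 to 1259 CPM. The blood ranges of the genotypes overlapped. The part of either marker list in the member values was not tested.

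The 3 members with the smallest p in this comparison were Olfr775, Olfr824 and Olfr792. Olfr775 (129248412 to 129253924, plus strand, MOR111) was at 5.75, 5.09 and 5.59 CPM in wild-type mice, 5.87, 4.85 and 4.33 CPM in Ms4a cluster knockout mice and 3.50, 2.52 and 3.85 CPM in Ms4a6c knockout mice. The Ms4a6c knockout mice were below all others. The log2 fold change against wild type was -0.73 (SE 0.19; edgeR adjusted p = 0.185). Its partner Olfr776, next to it and 96.0% identical, was at 8.98 ± 1.40 CPM in wild-type and 7.84 ± 0.407 CPM in Ms4a6c knockout mice (SD, n = 3), and the pair summed gave -0.38 (SE 0.11; edgeR adjusted p = 0.253). The Olfr775 transcript also matched many transcripts outside the set, so its level is uncertain. Examples are A130077B15Rik over 586 bases at 92.8% identity and Olfr539 over 474 bases at 94.1%. Olfr792, described above, had a log2 fold change of 1.15 (SE 0.33; edgeR adjusted p = 0.233), and summed with Olfr798 it had 0.19 (SE 0.21). Olfr763, the first gene of the cluster (129010791 to 129013313, plus strand, MOR269), was at 1.70, 1.07 and 1.19 CPM in wild-type mice, 1.85, 1.54 and 2.42 CPM in Ms4a cluster knockout mice and 1.75, 3.22 and 2.34 CPM in Ms4a6c knockout mice. Its lowest Ms4a6c knockout mouse lay close to the highest wild-type mouse. Its transcript is 92.4% identical over 1862 bases to that of Olfr9, a receptor gene just outside the cluster.

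Between the knockouts, 0 of 54 members passed (edgeR, adjusted p under 0.05), where 0.443% of all tested genes did, and 6 members (1 higher, 5 lower in the Ms4a cluster knockout), or 11.1%, had an unadjusted p under 0.05, beside 9.38% of all genes and 16.9% of other odorant receptor genes. DESeq2 called 1 member, Olfr824. At the same threshold it called 129 of the 23225 genes higher and 142 lower. Of the 1054 other odorant receptor genes it called 5 higher and 19 lower. The members' median log2 fold change was -0.25, with 39 of 54 below 0, against -0.17 for other odorant receptor genes, -0.31 for chromosome 9 receptors and -0.33 for class I receptors. Without Ms4a6c knockout mouse 1, the median was -0.08 for the members and -0.16 for other odorant receptor genes. Groups did not overlap in 10 members (3 higher, 7 lower), or 18.5%, beside 16.0% of all genes. Olfr775, Olfr776 and Olfr806 were higher in the Ms4a cluster knockout, and Olfr769, Olfr786, Olfr790, Olfr808, Olfr815, Olfr819 and Olfr824 were lower. This comparison shares its samples with the other comparisons and adds no independent mice.

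**Figure D4:**
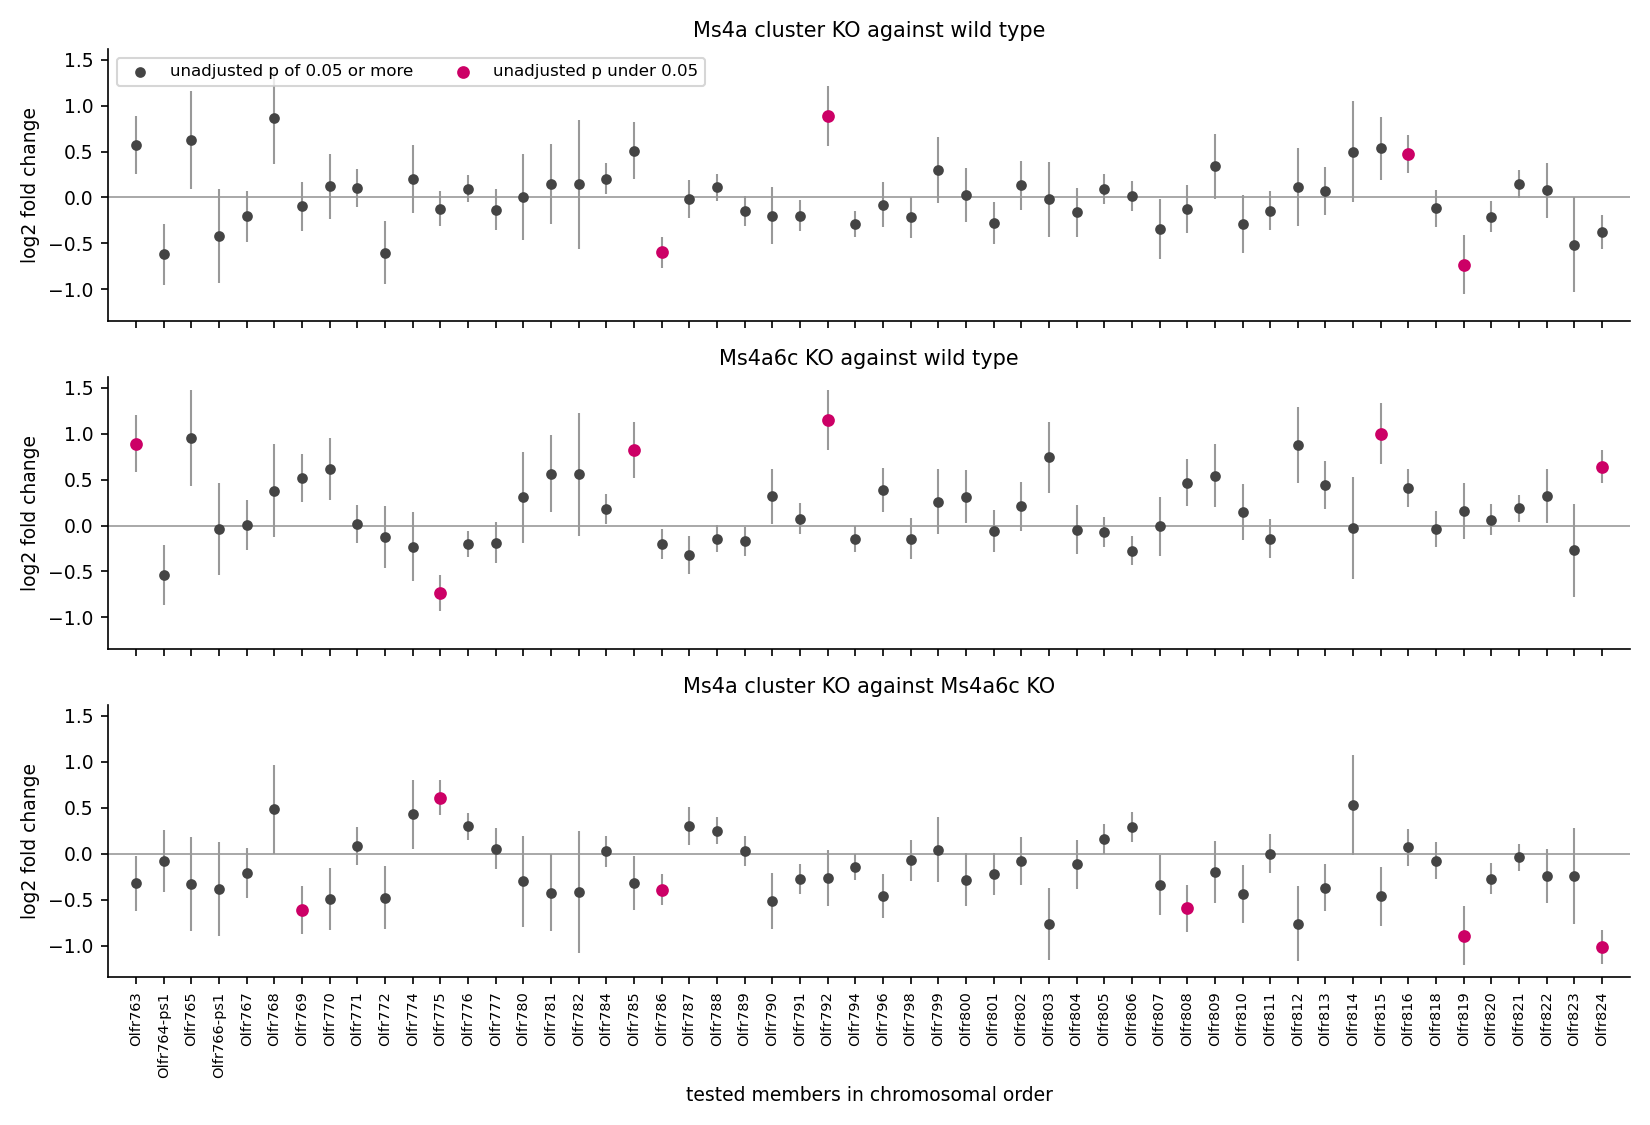
Log2 fold change of each of the 54 tested members, in chromosomal order, in the 3 comparisons, with bars of 1 SE and larger colored points for an unadjusted p under 0.05. The values scatter around 0 along the whole cluster, and no member has an adjusted p under 0.05.

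Olfr824, the last gene of the cluster (130123470 to 130130000, minus strand, MOR210), came nearest to the threshold. It was at 4.44, 4.00 and 3.56 CPM in wild-type mice, 2.65, 3.93 and 2.80 CPM in Ms4a cluster knockout mice and 6.88, 5.83 and 5.95 CPM in Ms4a6c knockout mice. The Ms4a6c knockout mice were above all 6 other mice, while the wild-type and Ms4a cluster knockout ranges overlapped. The difference between the knockouts was -1.02 on the log2 scale (SE 0.19) with an edgeR adjusted p of 0.0544, and 5 alternatives put it under the threshold while 12 did not, over a range of 0.00226 to 0.23. It was larger, -1.19 with an edgeR adjusted p of 0.0176, without the 2 libraries rich in gland transcripts. Against wild type the log2 fold change was 0.64 (SE 0.18; edgeR adjusted p = 0.233) in the Ms4a6c knockout and -0.38 (SE 0.19; edgeR adjusted p = 0.968) in the Ms4a cluster knockout.

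Because Olfr823 and Olfr824 are 98.7% identical in coding sequence, as the stretch above shows in part, they were also summed. The sum was 5.47, 4.66 and 4.15 CPM in wild-type mice, 3.01, 4.09 and 3.76 CPM in Ms4a cluster knockout mice and 7.46, 6.45 and 6.63 CPM in Ms4a6c knockout mice. The groups were placed as for Olfr824 alone, except that every Ms4a cluster knockout mouse was now below every wild-type mouse. The knockouts differed by -0.93 (SE 0.17; edgeR adjusted p = 0.0590). Olfr823 alone was at 0.763 ± 0.238, 0.493 ± 0.421 and 0.625 ± 0.0501 CPM (SD, n = 3), with the genotypes overlapping.

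Olfr775 and Olfr819 followed in this comparison. Olfr775 was higher in the Ms4a cluster knockout by 0.61 (SE 0.19; edgeR adjusted p = 0.338). Olfr819 (129963011 to 129967266, minus strand), the only MOR265 receptor, was at 1.55, 1.65 and 3.19 CPM in wild-type mice, 1.60, 1.03 and 1.20 CPM in Ms4a cluster knockout mice and 2.41, 2.57 and 2.16 CPM in Ms4a6c knockout mice. Wild-type mouse 3 was the highest of all and the other 2 wild-type mice were within or just beyond the range of the Ms4a cluster knockout. The knockouts differed by -0.89 (SE 0.32; edgeR adjusted p = 0.416), and Ms4a cluster knockout from wild type by -0.73 (SE 0.32; edgeR adjusted p = 0.968), a value that fell to -0.33 without wild-type mouse 3. Olfr819 shares reads with genes outside the set: its transcript matched Olfr247 over 1979 bases at 96.7% identity and Gm10310 over 3859 bases at 94.5%, so its level is uncertain.

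Olfr810 (129787289 to 129794917, minus strand, MOR113), named here after its values were seen, depended on a single library. It was at 9.24, 7.66 and 9.22 CPM in wild-type mice, 5.06, 4.19 and 11.7 CPM in Ms4a cluster knockout mice and 9.95, 9.06 and 9.85 CPM in Ms4a6c knockout mice. Ms4a cluster knockout mice 1 and 2 were the lowest of the 9 and mouse 3 the highest. With all mice, the knockouts differed by -0.44 (SE 0.31; edgeR adjusted p = 0.704). Without Ms4a cluster knockout mouse 3 the difference was -1.05 with an edgeR adjusted p of 0.0330.

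**Figure D5:**
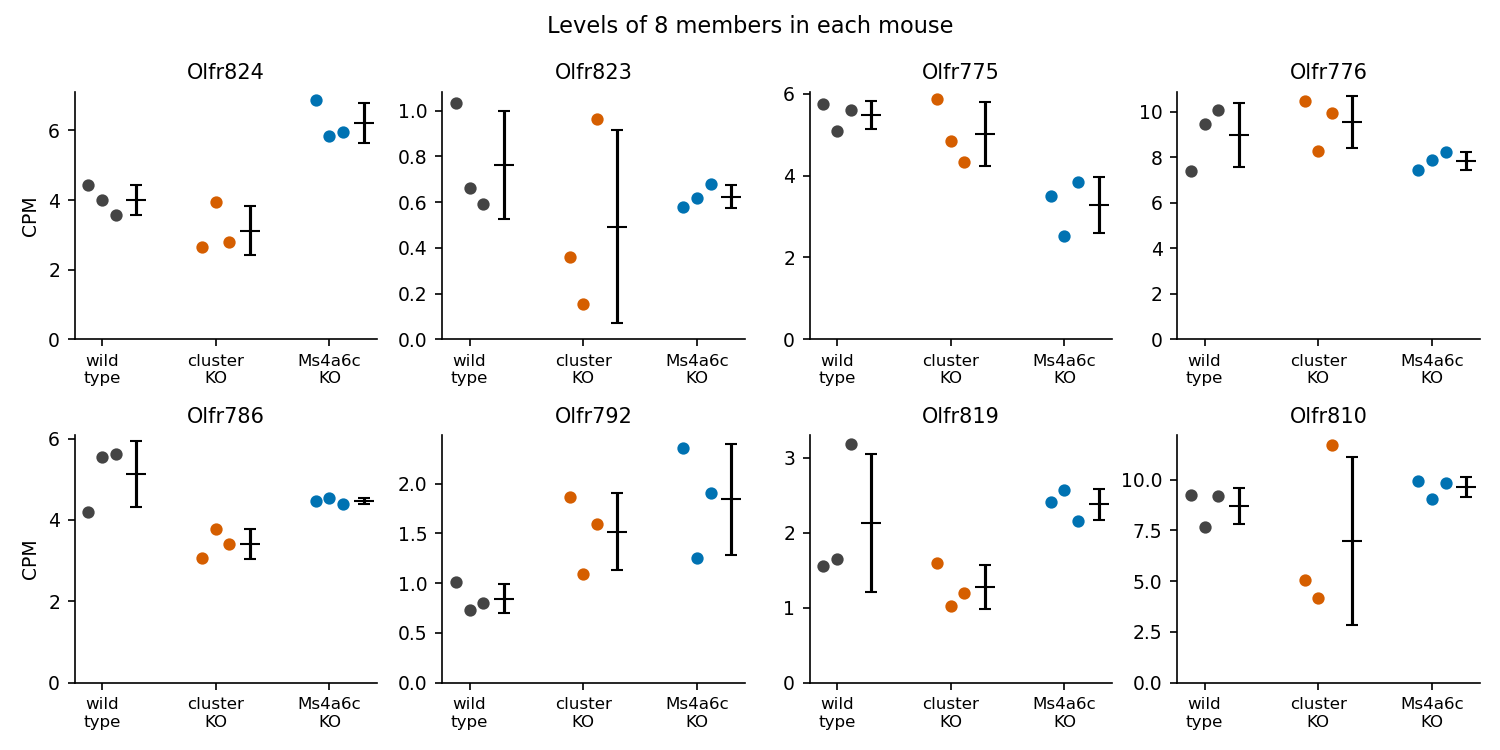
CPM of 8 members in each mouse, with the mean and SD of each genotype as bars and each axis starting at 0. Olfr824 is highest in the Ms4a6c knockout mice, Olfr775 lowest in them, and Olfr810 is split among the Ms4a cluster knockout mice.

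The abundant members had small fold changes. Over the 8 members with the most CPM per kb, log2 fold changes ran from -0.29 to 0.15 for Ms4a cluster knockout against wild type, from -0.17 to 0.38 in the Ms4a6c knockout against wild type, and from -0.46 to 0.25 between the knockouts. Over all members the median SE was 0.27 in each comparison, and changes of several SEs, such as that of Olfr824 between the knockouts, did not pass the adjusted test with 3 mice a group. No member moved by more than 1 on the log2 scale for Ms4a cluster knockout against wild type, and 1 member did in each of the other comparisons. Of other odorant receptor genes, 5.41%, 6.55% and 6.36% did, in the order of comparisons given above.

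Genes that act in receptor choice were examined alongside. The 18 genes included Lhx2, Ldb1 and the Ebf genes, transcription factors of receptor enhancers, and Kdm1a, a histone demethylase. They also included Lbr, the lamin B receptor, and Atf5 and Eif2ak3 of the feedback through the unfolded protein response. Rtp1 and Rtp2, which carry receptors to the membrane, were listed too. Of the 18 genes, 0 passed the edgeR test in any comparison, and 1 had an unadjusted p under 0.05 in each. Their median log2 fold changes were -0.04, 0.05 and -0.05 in the order used above. Among 12 markers of mature sensory neurons, 1 passed: Gng13, a G protein gamma subunit of the sensory cilia, was at 359 ± 11.8 CPM in wild-type, 373 ± 44.8 CPM in Ms4a cluster knockout and 193 ± 12.8 CPM in Ms4a6c knockout mice (SD, n = 3; log2 fold change against wild type -0.89, SE 0.09, edgeR adjusted p = 0.00121, for Ms4a6c knockout). The other 11 did not pass. Of 3 zone markers, Nqo1 and Acsm4 of the dorsal epithelium and Ncam2 of the ventral, 0 passed in any comparison.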

How the data were processed

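RNA of the main olfactory epithelium was measured in 9 mice, 3 per genotype. The authors sequenced directional poly-A libraries in paired-end mode, aligned the reads with STAR 2.6.1, quantified them with RSEM 1.3.1 (GENCODE M25, build GRCm38), and deposited expected counts without normalization; per the submitters' notes their own comparison used DESeq2 1.30.1 in R 4.0.0. Whether RSEM counted by strand is not given in the sources used here. Groups and replicate numbers came from the sample labels.

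CPM was computed from the expected counts as deposited, divided by TMM-scaled library sizes. For tests the expected counts were rounded. The 23225 genes whose 9 values added up to 10 counts or more entered quasi-likelihood tests of edgeR 4.0.16 (R 4.3.3), in which all mice shared a model, and p-values were adjusted by Benjamini-Hochberg over all genes. SEs were derived from the fold change and the F statistic. Sums and shares were compared by two-sided exact permutation tests. Exon lengths, coordinates and coding sequences were taken from GENCODE M21 (GRCm38 as well); all 61 members and 99.6% of genes were matched by transcript; MOR names came from RefSeq (GRCm38.p6). Near-identical transcripts were sought with megablast (blast 2.17.0; 90% identity over 300 bases), and coding sequences were aligned with biopython 1.88. Figures and permutations used Python 3.11, scipy 1.17.1 and matplotlib 3.10.9. The edgeR procedure was also run on simulated counts with planted changes, and the outcome of that run is not given here.

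Members, gene lists and tests were chosen with earlier results of these data known. Named members were the 8 highest by CPM per kb, any member with an adjusted p under 0.05, the 3 smallest p per comparison, the ends of the cluster, -ps members, those next to the 10-count limit and near-identical ones. Alternatives were DESeq2's size factors, DESeq2 1.42.0 as the test, no filter, edgeR's default filter, a fit of 2 genotypes, a replicate block, an adjusted p under 0.01, leaving out each mouse and, for sums and shares, other totals, log2(CPM + 0.1) and members left out. Added after seeing the data were leaving out the 2 gland-rich libraries, odorant receptor counts as library size, and near-identical members summed. Depth was 13954591 to 21987174 counts per mouse; reads carry no molecular identifiers, so limits cover counting error only.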

Additional observations from a re-analysis of the deposited data

Results flagged for a closer look

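For Olfr824, every Ms4a cluster knockout mouse was below the wild-type mean, the nearest at 3.93 against 4.00 CPM, and every Ms4a6c knockout mouse was above it, while neither knockout passed the test against wild type (edgeR adjusted p = 0.968 and 0.233). The difference between the knockouts, tested directly, was -1.02 on the log2 scale with an edgeR adjusted p of 0.0544, so it did not pass. For Olfr819 the mice were placed likewise, with a difference between the knockouts of -0.89 (edgeR adjusted p = 0.416) and log2 fold changes against wild type of -0.73 (adjusted p = 0.968) and 0.16 (adjusted p = 0.899), neither of which passed, and its wild-type mean rests on wild-type mouse 3, at 3.19 CPM beside 1.55 and 1.65 CPM. These were 2 of the 54 tested members. The share of all genes placed in this way is not given here, so the count is not a result about the members. Samples within a group were not checked for outlying values, since groups held 3 mice.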

How the results depend on the processing

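No member was called in either knockout against wild type under any alternative run, including DESeq2, the replicate block and each mouse left out. Between the knockouts the count was 0 to 1: DESeq2, edgeR's default filter, no filter, and leaving out the 2 gland-rich libraries each called 1 member, Olfr824, leaving out Ms4a cluster knockout mouse 2 also called Olfr824 (adjusted p = 0.022), and leaving out Ms4a cluster knockout mouse 3 called Olfr810. Olfr824 was called under an adjusted p of 0.00226 with DESeq2, 0.0364 without a filter and 0.0499 with the default filter, and not with the 2 genotypes alone (0.133). The cause of these shifts was not tested. Of all genes, DESeq2 called 129 higher and 142 lower out of 23225. The default filter gave 60 and 50 of 18081, and no filter 77 and 78 of 31152. Without the gland-rich libraries the counts were 80 and 67 of 22710. Without Ms4a cluster knockout mouse 2 they were 44 and 44 of 23014, and without mouse 3 they were 34 and 42 of 22839. With each mouse left out in turn, differences in summed CPM were -15.4 to -7.00 for the Ms4a cluster knockout against wild type, -3.53 to 16.97 for the Ms4a6c knockout against wild type and -27.5 to -6.96 between the knockouts; differences in share were 0.0383 to 0.271, -0.0938 to 0.311 and -0.166 to 0.238 percentage points. The share between the knockouts, 0.0108 with all mice, turned to -0.0474 with class II receptors as the total, -0.0172 without Olfr789 and -0.0954 without the gland-rich libraries. With plain library sizes the summed difference was 40.6 CPM for the Ms4a6c knockout against wild type and -50.4 CPM between the knockouts. With odorant receptor counts as library size, the median of all genes between the knockouts moved to 0.12 and that of the members to -0.14. Replicate numbers were checked by correlating each mouse's deviations from its genotype mean over 16537 genes. Same-numbered mice correlated at -0.131 on average and at most 0.107, and others at 0.0680 on average. The 2 gland-rich libraries, which carry different numbers, correlated at 0.474. With these libraries included, the check cannot show whether same-numbered mice shared a litter or a batch. With the replicate block, 0 members were called in each comparison; the blocked differences in sum, -10.5 CPM for the Ms4a cluster knockout and 8.36 CPM for the Ms4a6c knockout against wild type, equal the unblocked ones by construction and say nothing of stability. Depth limits the low members: Olfr782 had 69.9 counts in all.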

Other observations

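Odorant receptor genes around and within the cluster that the number range leaves out were expressed as well. Olfr247, between Olfr819 and Olfr820, was at 6.94 CPM in wild type, 4.80 CPM in the Ms4a cluster knockout and 4.32 CPM in the Ms4a6c knockout (log2 fold change in the Ms4a6c knockout -0.68, edgeR adjusted p = 0.599), and it shares 96.7% identity over 1979 bases with Olfr819. Olfr1542-ps1, also inside, had 0 counts. Just outside, Olfr9, 92.4% identical to Olfr763 over 1862 bases, was at 1.68 CPM over all mice, and Olfr825, Olfr826 and Olfr827 were at 2.65, 2.03 and 6.05 CPM; none of these 5 expressed genes passed the edgeR test in any comparison.

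The other genes next to the cluster were of unequal expression on its sides. The 10 nearest tested genes on the lower side, from Mmp19 to Itga7, summed to 411 to 456 CPM in the 9 mice, while the 6 tested genes between the cluster and the chromosome end, which include Neurod4 and Tespa1, summed to 0.832 to 1.97 CPM. Of both lists, 0 genes passed the edgeR test in any comparison. Immature neuron markers (4 genes), leukocyte markers (5) and blood markers (2, whose values stand beside the Ms4a6c knockout comparison) also held 0 genes that passed, and of the 8 gland markers 6 were tested and 0 passed.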
